A study of Rattus norvegicus with 54 samples.

Results

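The 10 genes described here were all found among the 40319 genes listed in each of the 54 libraries. They were matched by symbol, and the set was chosen with earlier results of these data known. Wt1, Tbx18 and Tcf21 encode transcription factors of the epicardium and its descendants. Msln, Upk3b, Krt19 and Lrrn4 encode proteins made by the mesothelium that forms the outer surface of the heart. Aldh1a1, Aldh1a2 and Aldh1a3 encode the retinaldehyde dehydrogenases, which turn retinaldehyde into retinoic acid.

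The epicardium is the mesothelial sheet on the outside of the heart. In the embryo it gives rise to cardiac fibroblasts and mural cells and secretes retinoic acid, for which Aldh1a2 is the main enzyme. After an infarct in the adult rodent it is known to take up parts of this embryonic gene program. The mesothelial surface is a single layer of cells, so its transcripts make up little of the RNA of a whole wall piece and their share depends on how much outer surface the piece holds.

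The libraries were made from polyA RNA of the left ventricle of female F344/NJcl-rnu/rnu rats, athymic animals that were 8 weeks old, 1 week after surgery. Sham animals had surgery without ligation and no treatment. MI animals had the left anterior descending artery (LAD) permanently ligated and no treatment, and MI+Cell Sheet animals had the same ligation and then a bi-level sheet of human endothelial progenitor cells and human smooth muscle cells laid on the epicardium over the ischemic area. Every animal, sham included, was athymic, which is what lets it carry a human graft. There were 6 animals per treatment, and each gave an infarct zone piece (anterior wall), a border zone piece (lateral wall) and a remote zone piece (ventricular septum), so that sham hearts have pieces of the same places with no infarct in them. In the labels each set of 6 is given as technical replicates, whereas the study describes separate hearts; if the labels were right, the p-values below would measure technical spread only. Whether human transcripts contributed reads to rat genes was not tested.

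Counts on genes ranged from 12699204 to 23397754 per library. Some libraries stood apart in summed marker levels, given in CPM (the usual depth-scaled counts, here with TMM factors over all libraries). Sham 5 had the lowest cardiomyocyte sum of the sham animals in each zone (11390 to 18060 CPM, where the sham medians were 36350 to 40850 CPM) and the highest macrophage sum (940.5 to 1327 CPM against medians of 163.9 to 237.6 CPM). Cell sheet 1 had a border cardiomyocyte sum of 89.2 CPM and a remote sum of 11880 CPM, the lowest of its treatment in both. Cell sheet 3 had the highest cardiomyocyte sum (13960 CPM) and the lowest Msln, Upk3b, Lrrn4 and Krt19 of the cell sheet border libraries. Lung epithelium markers reached 189.4 CPM in the border library of MI 3, 192.1 CPM in that of cell sheet 4 and 64.5 CPM in the infarct library of cell sheet 6, against group medians of at most 0.632 CPM; the part of these cells in the results was not tested. Some of the results below are also given without these animals.

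In the infarct zone, 7 of the 10 genes differed between untreated MI and sham. Tbx18, Msln, Lrrn4, Aldh1a2 and Aldh1a3 were higher and Krt19 and Aldh1a1 were lower (edgeR's quasi-likelihood test, Benjamini-Hochberg adjusted p under 0.05 over 15758 genes). Of all genes tested there, 22.7% were higher and 27.2% lower, so the 5 of 10 members that were higher stand beside a background of 22.7%, and the 2 of 10 that were lower are near the background. The median log2 difference was 1.08 over the 10 members and -0.02 over all genes. Leaving out sham 5 left the same 7 members called. In whole tissue pieces, more cells of a type and more RNA per cell cannot be told apart, here or in any comparison below.

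**Figure D1:**
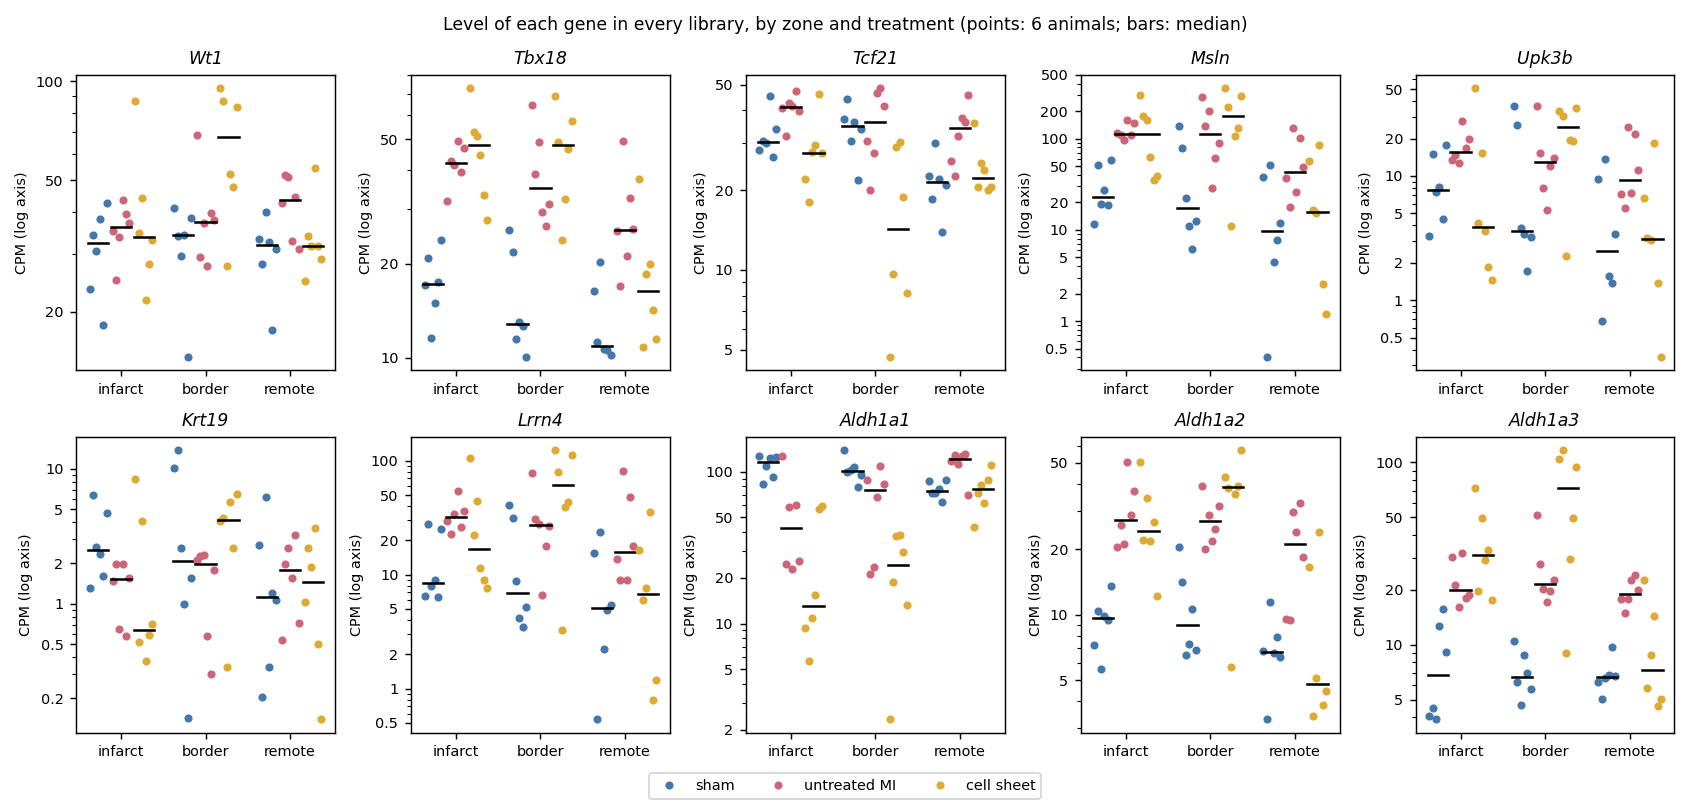
Level of each of the 10 genes in every library in CPM on a log axis, by zone on the horizontal axis and by treatment in colour; each point is 1 animal and each bar the median of 6. The Tbx18 points of the untreated MI infarct zone (31.8 to 49.3 CPM) all lie above those of sham (11.6 to 23.8 CPM), whereas Msln in the sham remote zone spreads from 0.405 to 51.0 CPM.

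Summed markers of other cell types differed between the same groups. The 5 fibroblast markers had lowest, median and highest sums of 3534, 3889 and 5177 CPM in the sham infarct zone and of 11420, 25220 and 31730 CPM in that of MI. In the border zone they were 3297, 4392 and 4935 CPM against 13540, 20690 and 35930 CPM, and in the remote zone 2812, 3488 and 4173 CPM against 5375, 12480 and 19280 CPM. Of these 5 genes, 4, 5 and 4 were called higher in infarct, border and remote zone, and all 4 activated fibroblast markers were higher in each. The 5 macrophage markers summed to a median of 231.4 CPM in the sham and 869.4 CPM in the MI infarct zone, 237.6 and 1039 CPM in the border zone, and 163.9 and 502.4 CPM in the remote zone, with 3, 4 and 1 of them called higher. Cardiomyocyte markers were lower, 6, 6 and 4 of 6 being called. The part of these cell types in the member differences was not tested.

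Tbx18, a T-box factor of the embryonic and injured epicardium, was the epicardial factor with a difference in every zone. Within the infarct zone it had a lowest, median and highest level of 11.6, 17.3 and 23.8 CPM in sham and of 31.8, 42.0 and 49.3 CPM in untreated MI. The ranges did not overlap, and the log2 difference was 1.25 ± 0.17 (SE, n = 6 and 6; edgeR adjusted p = 0.000254). In the border zone the sham levels ran from 10.1 to 25.6 CPM and those of MI from 26.5 to 64.4 CPM, again without overlap (log2 difference 1.33 ± 0.28, edgeR adjusted p = 0.00472). In the remote zone sham lay between 10.2 and 20.3 CPM and MI between 17.0 and 49.5 CPM, with only the lowest MI animal inside the sham range (log2 difference 1.11 ± 0.26, edgeR adjusted p = 0.00819). Tbx18 was thus higher after infarction in the septum, too, and the effect in the infarct zone minus that in the septum was 0.19 ± 0.34 (edgeR adjusted p = 0.70).

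Wt1, the zinc finger factor used to mark activated epicardium and also expressed in endothelial cells after infarction, did not pass the test between untreated MI and sham in any zone. Its sham infarct levels were 18.2, 32.4 and 42.6 CPM (lowest, median, highest) and its MI infarct levels 25.0, 36.1 and 43.6 CPM. The log2 differences for infarct, border and remote zone were 0.20 ± 0.20, 0.32 ± 0.26 and 0.48 ± 0.18 (edgeR adjusted p = 0.421, 0.338 and 0.071). Sham 5 was the lowest sham animal for Wt1 in each zone, at 14.6 to 18.2 CPM. Within the remote zone Wt1 passed when sham 3, sham 5 or MI 6 was left out (edgeR adjusted p from 0.048 to 0.0496).

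Tcf21, the basic helix-loop-helix factor of resident cardiac fibroblasts and their epicardial precursors, was higher in the MI remote zone. It lay between 13.9 and 30.1 CPM in sham and between 22.6 and 45.6 CPM in MI there, with overlapping ranges (log2 difference 0.64 ± 0.19, edgeR adjusted p = 0.0269). This call was lost when any of MI 4, MI 5, MI 6, sham 2, sham 4 or sham 6 was left out (edgeR adjusted p from 0.0507 to 0.0613), and in a single fit of all 54 libraries (edgeR adjusted p = 0.09). In the infarct zone the difference was 0.32 ± 0.13 (edgeR adjusted p = 0.062) and in the border zone 0.07 ± 0.22 (edgeR adjusted p = 0.804).

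Msln encodes mesothelin, a surface protein of mesothelial cells. Within the infarct zone its lowest, median and highest levels were 11.7, 23.2 and 58.1 CPM in sham and 96.6, 113 and 159 CPM in untreated MI. Every MI animal was above every sham animal (log2 difference 1.98 ± 0.36, edgeR adjusted p = 0.00142). Within the border zone the difference was of like size, 1.58 ± 0.78, but sham itself spread from 6.24 to 138 CPM and the test was not passed (edgeR adjusted p = 0.119). Without sham 1, the animal at 138 CPM, it was 2.35 (edgeR adjusted p = 0.0332). In the remote zone sham spread from 0.405 CPM (6 counts) to 51.0 CPM and the difference was 1.67 ± 0.80 (edgeR adjusted p = 0.137).

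Lrrn4, a leucine-rich repeat membrane protein used as a mesothelial marker, was also higher in the MI infarct zone. Sham levels were 6.41, 8.43 and 27.8 CPM and MI levels 22.9, 31.8 and 54.1 CPM, so that sham 2 and sham 6 reached into the MI range (log2 difference 1.29 ± 0.41, edgeR adjusted p = 0.0201). Upk3b, a uroplakin of mesothelial and urothelial surfaces, had sham levels of 3.31, 7.74 and 17.8 CPM and MI levels of 12.6, 15.7 and 27.9 CPM (log2 difference 0.91 ± 0.38, edgeR adjusted p = 0.0649). It passed when sham 2 or sham 6 was left out (edgeR adjusted p from 0.0221 to 0.0436). With all 54 libraries in a single fit the Lrrn4 call was lost (edgeR adjusted p = 0.164).

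Krt19, a keratin of simple epithelia and mesothelium, went the other way in the infarct zone. Its sham levels were 1.31, 2.49 and 6.33 CPM and its MI levels 0.577, 1.52 and 1.97 CPM (log2 difference -1.20 ± 0.44, edgeR adjusted p = 0.0405). The ranges overlapped, and the call was lost when any of MI 1, MI 3, MI 5, MI 6, sham 2, sham 3 or sham 6 was left out (edgeR adjusted p from 0.0549 to 0.112). It was also lost with library size in place of TMM factors, without the filter on low counts and with all 54 libraries in a single fit (edgeR adjusted p = 0.0953, 0.0612 and 0.198). In the border zone the difference was -1.62 ± 0.86 (edgeR adjusted p = 0.143), and without sham 5 it was -1.88 (edgeR adjusted p = 0.0342). Krt19 rested on few reads, 2 counts in the poorest library.

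The 3 retinaldehyde dehydrogenases did not move alike. They are enzymes of the same step, and their directions differed in the MI infarct zone, where Aldh1a1 was lower and the others higher. The 250 bases before the RefSeq transcription start of each are shown, read along the strand of the gene. The assembly is GRCr8, whereas the counts were made on mRatBN7.2. Whether these sequences bear on the changes was not tested. Capitals mark every match, on either strand, to CCAAT or to GGGCGG. The motifs TATAAA and AGGTCA (a nuclear receptor half-site) were searched on both strands in the same way and had no match in these 3 windows, and no 2 matches overlapped.
Aldh1a1, chr1:227537370-227537619, plus strand: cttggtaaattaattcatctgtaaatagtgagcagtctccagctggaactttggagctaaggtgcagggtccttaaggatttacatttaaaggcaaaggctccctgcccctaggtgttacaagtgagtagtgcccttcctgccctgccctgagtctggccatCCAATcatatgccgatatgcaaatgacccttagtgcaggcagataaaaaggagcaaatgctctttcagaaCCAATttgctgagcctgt
Aldh1a2, chr8:80758391-80758640, plus strand: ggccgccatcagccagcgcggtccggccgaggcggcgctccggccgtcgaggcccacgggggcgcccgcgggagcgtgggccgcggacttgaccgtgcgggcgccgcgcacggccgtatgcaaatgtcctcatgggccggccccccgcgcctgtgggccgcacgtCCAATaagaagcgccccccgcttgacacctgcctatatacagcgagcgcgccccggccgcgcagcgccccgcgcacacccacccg
Aldh1a3, chr1:129427644-129427893, minus strand: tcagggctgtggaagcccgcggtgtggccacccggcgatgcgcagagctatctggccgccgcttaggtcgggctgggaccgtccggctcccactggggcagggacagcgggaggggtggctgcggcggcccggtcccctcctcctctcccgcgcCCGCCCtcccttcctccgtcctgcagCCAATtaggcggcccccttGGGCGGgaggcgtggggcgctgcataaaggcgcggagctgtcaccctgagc
The Aldh1a1 window had a GC content of 46.4%, below the median of 51.2% over the 33469 RefSeq promoters of this length, whereas those of Aldh1a2 and Aldh1a3 had 77.2% and 73.6%. CCAAT occurred 2 times before Aldh1a1 and 1 time before each of the others, and it occurs in 34.0% of all these promoters. GGGCGG occurred only before Aldh1a3 of the 3, with 2 matches, and is held by 30.5% of all promoters. TATAAA and AGGTCA are held by 12.9% and 14.1%. The matches are of letters and do not show that a factor binds. Of the 10 genes, 8 had a promoter in the RefSeq table, Msln and Krt19 being the others.

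Aldh1a2, the retinaldehyde dehydrogenase of the embryonic epicardium, was higher after infarction in all 3 zones. In the infarct zone its lowest, median and highest levels were 5.64, 9.66 and 13.5 CPM in sham and 20.5, 27.3 and 50.2 CPM in untreated MI, with no overlap (log2 difference 1.71 ± 0.26, edgeR adjusted p = 0.000532). Within the border zone sham lay between 6.50 and 20.4 CPM and MI between 20.03 and 39.0 CPM, and the ranges met at sham 1 (log2 difference 1.33 ± 0.29, edgeR adjusted p = 0.00539). Within the remote zone sham lay between 3.31 and 11.4 CPM and MI between 9.44 and 32.7 CPM (log2 difference 1.54 ± 0.35, edgeR adjusted p = 0.00762). The median sums of the fibroblast and of the macrophage markers, given above, were also higher in MI in the same 3 zones. Their part in the Aldh1a2 difference was not tested. The septum lies away from the ligated territory, and the effect in the infarct zone minus that in the septum was 0.23 ± 0.43 (edgeR adjusted p = 0.722).

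Aldh1a3, the family member known from sensory and epithelial tissues, was higher in every zone as well, and its MI and sham ranges did not overlap in any of them. Sham levels ran from 3.91 to 15.7, from 4.69 to 10.5 and from 5.06 to 9.76 CPM in infarct, border and remote zone. The MI levels ran from 16.1 to 31.7, from 17.1 to 51.5 and from 14.9 to 24.01 CPM. The log2 differences were 1.44 ± 0.37, 1.89 ± 0.29 and 1.502 ± 0.17 (edgeR adjusted p = 0.00765, 0.000896 and 0.000583). Sham 5, the animal with the highest sham macrophage sum, had the highest sham Aldh1a3 in the infarct and remote zones, at 15.7 and 9.76 CPM. In the border zone, where its macrophage sum was also the highest (1327 CPM), sham 1 had the highest sham Aldh1a3, at 10.5 CPM.

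Aldh1a1, which is abundant in healthy myocardium in these libraries, was lower in the MI infarct zone and higher in the MI remote zone. Within the infarct zone sham levels were 83.0, 116 and 128 CPM and MI levels 22.7, 42.4 and 127 CPM, with MI 1 inside the sham range and the other MI animals at most at 60.1 CPM. The log2 difference of -1.05 ± 0.39 was close to the threshold (edgeR adjusted p = 0.0418), and leaving out any of 9 of the 12 animals (MI 2 to MI 6, sham 1, sham 3, sham 4 or sham 6) took the adjusted p to between 0.0598 and 0.0823. The call was also lost with library size in place of TMM factors, without the filter on low counts and in a single fit of all 54 libraries (edgeR adjusted p = 0.0803, 0.0556 and 0.0503). In the border zone the difference was -0.67 ± 0.36 (edgeR adjusted p = 0.152). In the remote zone sham lay between 62.7 and 87.7 CPM and MI between 69.9 and 131 CPM, where MI 6 alone was inside the sham range (log2 difference 0.58 ± 0.14, edgeR adjusted p = 0.0109; in a single fit of all 54 libraries, 0.58 and 0.381).

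Whether the effect of MI on Aldh1a1 differed between infarct zone and septum was tested directly, which does not test the direction in either zone. The effect of MI against sham in the infarct zone minus that in the remote zone was -1.88 ± 0.35 on the log2 scale, with the animal as a block (edgeR adjusted p = 0.00245), and it was called without any 1 of the 12 animals. Aldh1a1 was the 1 member called in this interaction, in which 13.6% of genes had a more positive and 15.3% a more negative effect in the infarct zone. The lowest, median and highest sums of the 6 cardiomyocyte markers were 13080, 38580 and 44330 CPM in the sham infarct zone. They were 1490, 5742 and 19730 CPM in the MI infarct zone. In the MI remote zone, where Aldh1a1 was higher than in sham, the sums were 14990, 19770 and 25500 CPM. Those of the sham remote zone were 18060, 40850 and 41560 CPM. The part of cardiomyocyte content in the Aldh1a1 differences was not tested. The corresponding interaction of the border zone against the remote zone reached -1.44 ± 0.42 for Aldh1a1 (edgeR adjusted p = 0.0887) and -0.60 ± 0.18 for Tcf21 (edgeR adjusted p = 0.0958), and 0% of all genes passed there; 3995 genes and 2 members had an unadjusted p under 0.05, and DESeq2 called Tcf21 and Aldh1a1.

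**Figure D2:**
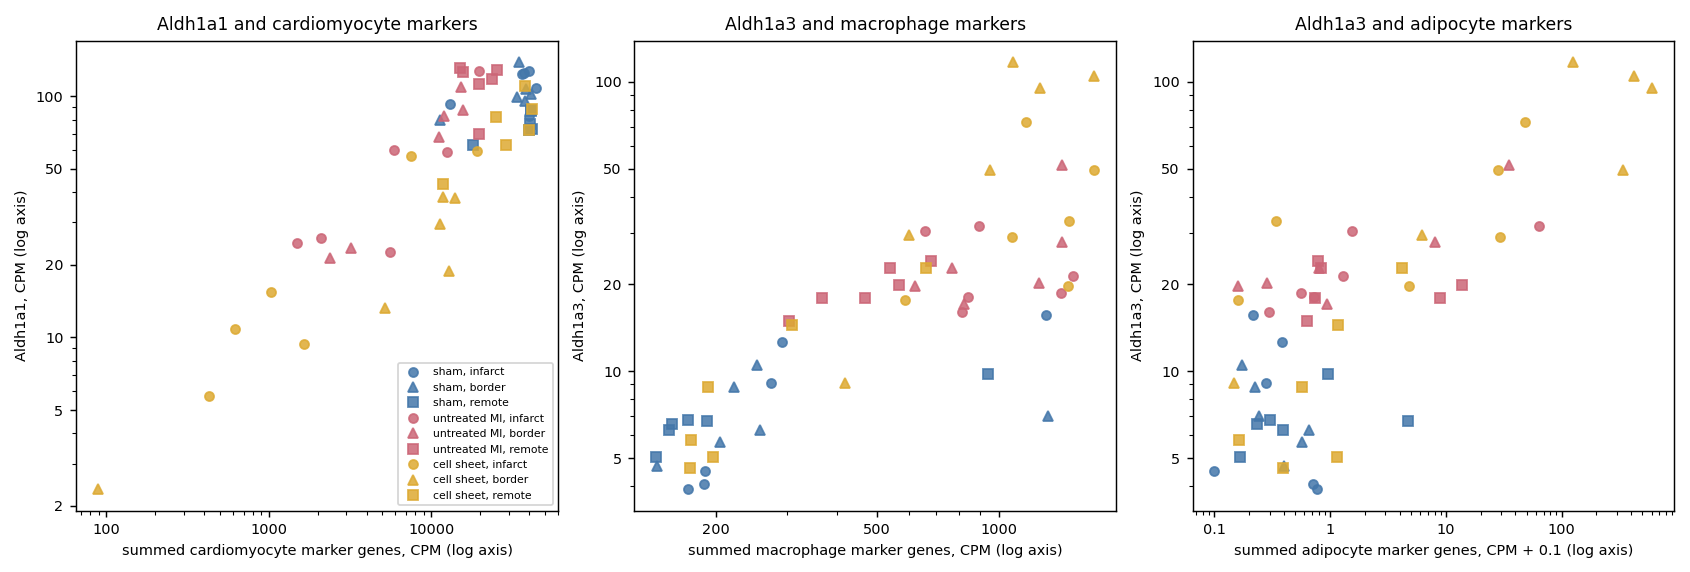
Aldh1a1 against summed cardiomyocyte markers, and Aldh1a3 against summed macrophage and summed adipocyte markers, in CPM on log axes (adipocyte sums with 0.1 CPM added); each point is 1 of the 54 libraries, with colour for treatment and shape for zone. The cell sheet border library at 89.2 CPM of cardiomyocyte markers has the lowest Aldh1a1, 2.35 CPM.

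Over the border zone, 3 members were called between untreated MI and sham, all higher (Tbx18, Aldh1a2 and Aldh1a3), beside 18.4% of genes higher and 23.2% lower. In the remote zone 5 were called, all higher (Tbx18, Tcf21, Aldh1a1, Aldh1a2 and Aldh1a3), beside 11.7% of genes higher and 14.2% lower. The median member difference was 0.66 in the border and 1.24 in the remote zone, against -0.02 and -0.04 over all genes. Without sham 5, Krt19 joined the calls in the border zone, and Wt1 in the remote zone (edgeR adjusted p = 0.0342 and at most 0.0496). Of the mesothelial genes, none passed in the border or the remote zone over all 12 animals.

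The cell sheet-treated hearts were compared with untreated MI hearts to ask what the sheet, which lies against the epicardium, changed in each zone. No member passed the test in any single zone. In the infarct zone no gene at all passed (0% of 16196 genes, lowest edgeR adjusted p = 0.472; 1341 genes had an unadjusted p under 0.05, and DESeq2 called 59). Within the border zone 18% of 16272 genes passed and 5 members had an unadjusted p under 0.05. For the remote zone the share was 17.1% of 15374 genes, with 4 members at an unadjusted p under 0.05. The median member difference was 0.02 in the infarct, 0.57 in the border and -0.77 in the remote zone, and that over all genes -0.01, -0.0044 and 0.01.

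**Figure D3:**
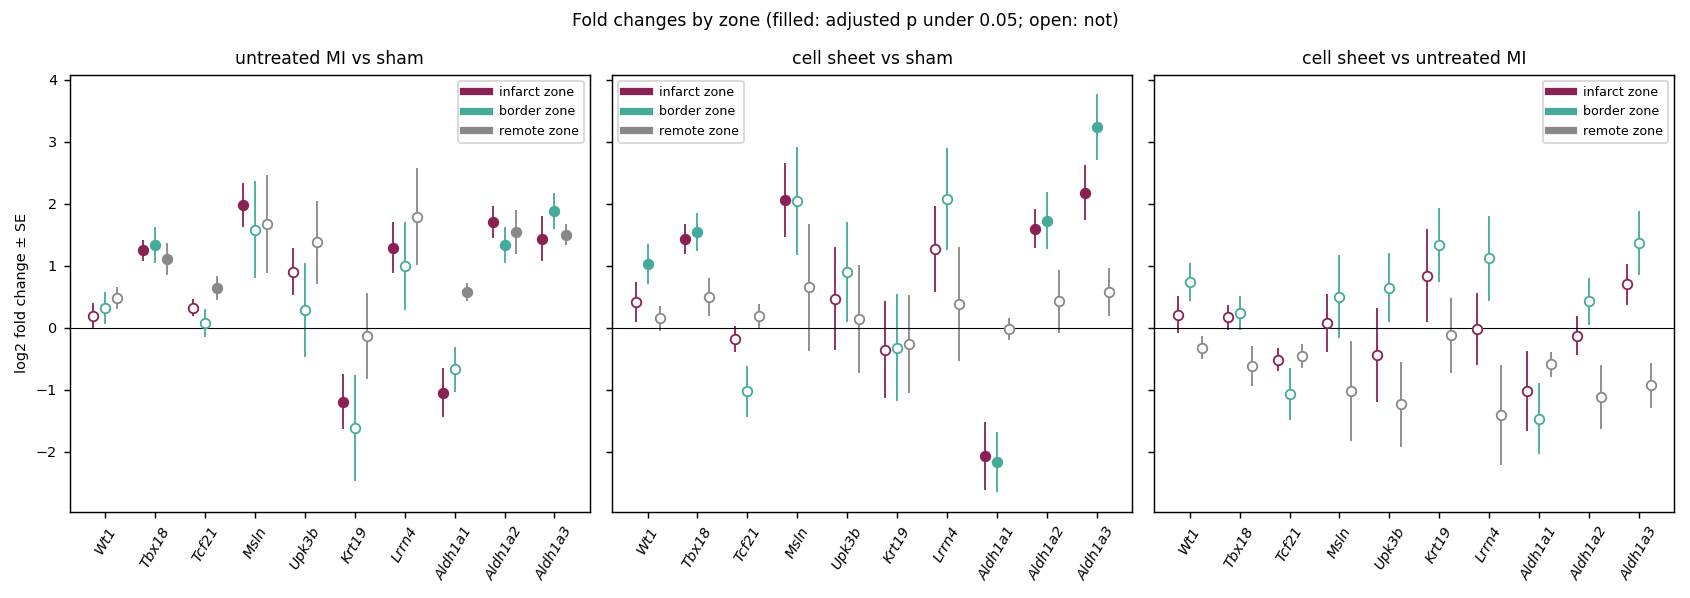
Log2 fold change with its SE for each gene and zone, in 3 panels for untreated MI against sham, cell sheet against sham, and cell sheet against untreated MI; filled points have an edgeR adjusted p under 0.05. Aldh1a3 in the border zone reaches 3.23 in cell sheet against sham, and every point of cell sheet against untreated MI is open.

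In the border zone the levels behind this differed among the cell sheet animals. Aldh1a3 had lowest, median and highest levels of 9.07, 72.3 and 117 CPM in the cell sheet border zone and of 17.1, 21.5 and 51.5 CPM in MI. 5 of the 6 cell sheet animals were above the MI median, and cell sheet 3 was below every MI animal. The log2 difference was 1.37 ± 0.51 (edgeR adjusted p = 0.0848), and without cell sheet 3 it was 1.60 (edgeR adjusted p = 0.0139). Without that animal Krt19 and Aldh1a2 were called too, at 1.58 and 0.65 (edgeR adjusted p = 0.034 and 0.0269). Wt1 was called without cell sheet 3 or without MI 1 (0.89 to 0.95, edgeR adjusted p from 0.0314 to 0.0467). DESeq2 on all 12 animals called Aldh1a3 higher (1.37, adjusted p = 0.0325) and Aldh1a1 lower (-1.46, adjusted p = 0.0431).

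Wt1 in the border zone was 27.6, 67.8 and 95.3 CPM in cell sheet-treated hearts and 27.4, 37.5 and 68.7 CPM in untreated MI, a log2 difference of 0.73 ± 0.30 (edgeR adjusted p = 0.116). Tcf21 was 4.70, 14.3 and 30.4 CPM against 20.03, 36.1 and 48.6 CPM, a difference of -1.07 ± 0.42 (edgeR adjusted p = 0.101). Aldh1a1 was 2.35, 24.2 and 38.4 CPM against 21.3, 75.5 and 109 CPM, a difference of -1.47 ± 0.58 (edgeR adjusted p = 0.101). For both Tcf21 and Aldh1a1, cell sheet 1 gave the lowest value, and its border library also had the lowest cardiomyocyte sum of the group. Among the cell sheet septa the same animal had the lowest cardiomyocyte sum (11880 CPM) and the lowest Aldh1a1 (43.3 CPM). Its Tcf21 was the highest there (35.9 CPM). A link of either gene to cardiomyocyte content was not tested. With all 54 libraries in a single fit, Tcf21, Aldh1a1 and Aldh1a3 passed in the border zone (edgeR adjusted p = 0.00351, 0.019 and 0.0152).

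The mesothelial surface genes in the border zone had differences from 0.50 to 1.34 between cell sheet and MI, none called. Msln was 11.01, 176 and 359 CPM in cell sheet hearts and 28.7, 114 and 287 CPM in MI, the second range lying within the first. Lrrn4 was 3.30, 61.3 and 124 CPM against 6.67, 27.2 and 77.9 CPM. Upk3b was 2.28, 24.9 and 35.2 CPM against 5.36, 12.99 and 36.4 CPM. In these 3 genes and in Krt19 the lowest cell sheet value was that of cell sheet 3.

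Within the remote zone the differences between cell sheet and untreated MI were negative for all 10 members in the main fit, from -0.13 to -1.41 on the log2 scale. None was called over all 12 animals. Krt19 changed sign in 4 of its 17 alternative settings, where it ran from -0.52 to 0.138. The members are correlated within libraries, so their common sign is not a set of 10 separate results. Aldh1a3 was 4.62, 7.29 and 22.8 CPM in cell sheet septa and 14.9, 18.9 and 24.01 CPM in MI septa (log2 difference -0.93 ± 0.36, edgeR adjusted p = 0.0839). Its highest cell sheet value was that of cell sheet 1, whose remote library also held 30940 CPM of summed fibroblast markers against a group median of 4156 CPM. Without cell sheet 1, Aldh1a3, Tbx18 and Tcf21 were called lower, at -1.35, -0.94 and -0.61 (edgeR adjusted p = 0.00165, 0.00931 and 0.00837). Aldh1a1 was called lower without cell sheet 1, cell sheet 6 or MI 6 (-0.47 to -0.73, edgeR adjusted p from 0.0298 to 0.0392). Upk3b and Aldh1a2 were called lower without cell sheet 4 (-2.12 and -1.62, edgeR adjusted p = 0.0445 and 0.0485). DESeq2 on all 12 animals called Aldh1a1 and Aldh1a3, both lower. Marker sums differed between the same septa. From MI to cell sheet the medians went from 12480 to 4156 CPM for fibroblast, from 1176 to 288.6 CPM for activated fibroblast and from 502.4 to 194.7 CPM for macrophage markers, and from 19770 to 33260 CPM for cardiomyocyte markers. Of the marker genes, 1 of 5 fibroblast genes was called lower and 1 of 6 cardiomyocyte genes higher, and 0 of the 4 activated fibroblast and 0 of the 5 macrophage genes were called. The part of these cell types in the member differences was not tested.

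When the infarct and border counts of each animal were added, Aldh1a3 was higher in cell sheet-treated than in untreated MI hearts (log2 difference 1.12 ± 0.29, edgeR adjusted p = 0.0284). It was the 1 member called, beside 6.02% of 17985 genes higher and 6.09% lower. The call was lost without any of cell sheet 1, cell sheet 2, cell sheet 6 or MI 3 to MI 6 (log2 difference 0.90 to 1.12, edgeR adjusted p from 0.0511 to 0.0647). Krt19 and Tcf21 lay just outside the threshold, at 1.15 ± 0.36 and -0.78 ± 0.24 (edgeR adjusted p = 0.0573 and 0.0543), and Aldh1a1 was at -1.28 ± 0.46 (edgeR adjusted p = 0.0923). Tcf21 passed without cell sheet 4, cell sheet 5 or MI 2, and Krt19 without cell sheet 5 or MI 2. The zones were not shown to differ in the effect of the sheet: in the interactions of border with infarct, border with remote and infarct with remote zone 0% of genes passed in each (2012, 3430 and 4190 genes and 0, 4 and 3 members at an unadjusted p under 0.05). The lowest adjusted p among the members was that of Aldh1a3 in infarct minus remote, 1.76 ± 0.30 (edgeR adjusted p = 0.0999; without cell sheet 1, 1.79 and 0.0165). DESeq2 called Aldh1a3 in this interaction and in that of border with remote zone (1.74 and 2.25, adjusted p = 8.84e-05 and 0.0157).

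Cell sheet-treated hearts were also compared with sham, in comparisons that share the sham libraries with those of MI above and the cell sheet libraries with those against MI. Within the infarct zone Tbx18, Msln, Aldh1a2 and Aldh1a3 were higher (log2 differences 1.43, 2.06, 1.59 and 2.18) and Aldh1a1 lower (-2.07 ± 0.55, edgeR adjusted p = 0.00731), beside 28.6% of genes higher and 29.2% lower; the same 5 members were called without any 1 animal and without sham 5 and cell sheet 1 together. Aldh1a1 in the cell sheet infarct zone was 5.69, 13.1 and 59.5 CPM, all below the lowest sham level of 83.0 CPM. Within the border zone Wt1, Tbx18, Aldh1a2 and Aldh1a3 were higher (1.03 ± 0.32, 1.54 ± 0.30, 1.73 ± 0.46 and 3.23 ± 0.53; edgeR adjusted p = 0.0208, 0.00167, 0.00957 and 0.000567) and Aldh1a1 was lower (-2.16 ± 0.49, edgeR adjusted p = 0.00384), beside 20.4% of genes higher and 23.2% lower. The median member difference there was 1.28, and over all genes -0.03. Without cell sheet 3, Tcf21 was lower and Msln and Lrrn4 higher as well (edgeR adjusted p at most 0.0324); leaving out sham 1 added Msln and Lrrn4, and leaving out cell sheet 4 or sham 5 added Tcf21. With sham 5 and cell sheet 1 both left out, 6 members were called, Tcf21 being added to the 5.

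In the remote zone no member differed between cell sheet-treated and sham hearts, nor did more than 1 gene of 15157 (0.0066%). There 1520 genes and none of the members had an unadjusted p under 0.05, and DESeq2 called 180 genes and no member. The member differences ran from -0.26 ± 0.79 (Krt19) to 0.65 ± 1.02 (Msln). The SE of the 4 mesothelial genes was 0.79 to 1.02 there, against 0.18 to 0.20 for Wt1, Tcf21 and Aldh1a1, so that the mesothelial values carry a wide error in the septum.

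Within the hearts, the infarct and border pieces were set against the remote piece of the same animal. The pieces come from different walls, so in MI and cell sheet hearts wall and injury cannot be told apart by these contrasts alone. How much outer surface each piece held is not given in the sources used here. In sham, Tcf21 and Aldh1a1 were higher in both pieces than in the septum: Tcf21 by 0.63 ± 0.11 in the infarct-zone piece and 0.68 ± 0.12 in the border piece, and Aldh1a1 by 0.52 ± 0.07 and 0.43 ± 0.07 (edgeR adjusted p = 0.000646, 0.00201, 3.31e-05 and 0.00161). The background was 15.9% of genes higher and 16.4% lower in the infarct-zone piece, and 12.7% higher and 13% lower in the border piece. Without sham 3, whose septum held the most Msln (51.0 CPM), Upk3b, Tbx18 and Aldh1a2 were called higher in both pieces and Msln in the infarct-zone piece; without sham 1, Msln and Upk3b were called in the infarct-zone piece.

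In untreated MI hearts Aldh1a1 was lower in the infarct zone than in the septum (-1.37 ± 0.32, edgeR adjusted p = 0.0154), whereas Tbx18 and Msln were higher (0.63 ± 0.21 and 1.38 ± 0.43; edgeR adjusted p = 0.0463 and 0.0367), beside 18.3% of genes higher and 18.1% lower. The Tbx18 call was lost without any of MI 1, MI 2, MI 4, MI 5 or MI 6 and the Msln call without any of MI 1, MI 2, MI 4 or MI 6 (edgeR adjusted p up to 0.129 and 0.10). Tcf21 joined without MI 6 and Aldh1a2 without MI 3. Between border zone and septum of MI hearts edgeR called no gene (0% of 15738, lowest adjusted p = 0.0751), although 5943 genes and 1 member had an unadjusted p under 0.05 and DESeq2 called 4370 genes with 2 members, Msln and Aldh1a1.

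The cell sheet-treated hearts had 6 members called in each zone contrast. In the infarct zone Tbx18, Msln, Lrrn4, Aldh1a2 and Aldh1a3 were higher than in the septum, by 1.39 ± 0.17, 2.98 ± 0.68, 2.01 ± 0.66, 1.88 ± 0.42 and 1.93 ± 0.24, and Aldh1a1 was lower by a log2 difference of -2.04 ± 0.42, beside 31.5% of genes higher and 31.4% lower. In the border zone Wt1, Tbx18, Upk3b, Aldh1a2 and Aldh1a3 were higher, by 0.91 ± 0.30, 1.39 ± 0.29, 2.41 ± 0.86, 2.12 ± 0.57 and 2.59 ± 0.65, and Aldh1a1 was lower at -1.99 ± 0.46, beside 29.2% higher and 27.2% lower. Tbx18, Aldh1a1 and Aldh1a3 were called in both contrasts without any 1 animal. The Lrrn4 call was lost without any of cell sheet 1, 2, 3, 5 or 6, while Upk3b was added without cell sheet 4. Within the border zone the Wt1 and Upk3b calls were lost without any of cell sheet 1, 2, 5 or 6, and that of Aldh1a2 without cell sheet 2 or 5. Msln and Lrrn4 were added there without cell sheet 3 or 4, and Krt19 without cell sheet 3, so that 3 to 9 members were called in the border zone.

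Within groups, the mesothelial genes went up and down together from library to library. Over the 54 libraries, Pearson's r of the deviations of log2 CPM from the group means was 0.97 between Msln and Lrrn4, 0.94 between Upk3b and Lrrn4 and 0.91 between Upk3b and Msln, and Krt19 had r of 0.81 to 0.85 with these 3. Tbx18 and Aldh1a2 went with them, with r of 0.57 to 0.80 against the 4 mesothelial genes, and Aldh1a2 and Aldh1a3 had r = 0.74 with each other. Tcf21 and Aldh1a1 stood outside this set, with r of -0.03 to -0.14 and of -0.23 to -0.36 against the mesothelial genes and 0.62 with each other. The libraries share animals (3 pieces each) and the composition of their pieces, so these values describe the libraries and carry no test.

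**Figure D4:**
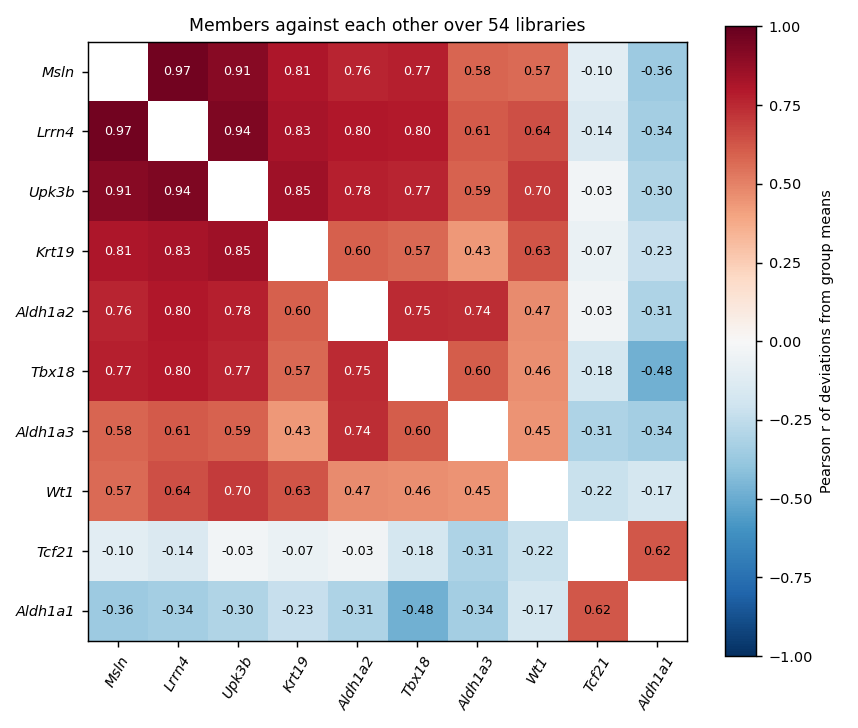
Pearson's r between every pair of the 10 genes, taken over 54 libraries after subtracting each group's mean log2 CPM; red is positive and blue negative. The 8 genes other than Tcf21 and Aldh1a1 are positive with each other, up to 0.97 for Msln and Lrrn4, while Tcf21 and Aldh1a1 are below 0 against each of the 8.

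The genes most like each member by the same measure, among 17743 genes, were in part other mesothelial genes. For Msln they were Lrrn4, Upk1b and Krt8 (r = 0.97, 0.96 and 0.92), for Upk3b Muc16, Crb2 and Nkain4 (0.95, 0.95 and 0.94), for Krt19 Muc16, Upk3b and Lrrn4 (0.85, 0.85 and 0.83), and for Lrrn4 Msln, Upk1b and Crb2 (0.97, 0.96 and 0.95). Tbx18 was nearest to Pdpn, which encodes podoplanin, to Krt8 and to Il17re (0.89, 0.86 and 0.85), and Wt1 to Pkhd1l1, Ppl and Efemp1 (0.88, 0.85 and 0.83). Tcf21 was nearest to Fxyd6, Pi16 and Omd (0.92, 0.84 and 0.83). Aldh1a2 was nearest to Cybrd1, Il17re and Ephb2 (0.89, 0.85 and 0.85) and Aldh1a3 to Tf, Emilin2 and C6 (0.90, 0.87 and 0.85). Aldh1a1 was nearest to Tesc, Mlip and Cryab (0.93, 0.92 and 0.92), the last of which encodes the small heat shock protein of heart muscle.

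The members were also set beside summed markers of other cell types in the same way. With the 5 fibroblast markers r was 0.63 for Aldh1a2, 0.55 for Tbx18 and 0.48 for Msln, and from -0.49 (Aldh1a1) to 0.46 (Aldh1a3) for the other 7. Aldh1a1 had r = 0.89 with the 6 cardiomyocyte markers and Tcf21 r = 0.58, while the other members lay between -0.42 and -0.0035. In the cell sheet infarct zone the cardiomyocyte sum was 426.9, 1341 and 19090 CPM (lowest, median, highest), and in the cell sheet border zone 89.2, 11530 and 13960 CPM, where that of MI was 2376, 11540 and 15770 CPM. Aldh1a3 had r = 0.63 with the 5 adipocyte markers and 0.60 with the 5 macrophage markers, and Aldh1a2 0.47 with each. Adipocyte markers summed to 0.0485, 232.1 and 611.1 CPM in the cell sheet border zone and to 0.06, 0.769 and 35.3 CPM in the MI border zone. Macrophage markers summed to 417.9, 1018 and 1724 CPM and to 622.1, 1039 and 1435 CPM in the same groups. The cell sheet 3 border library, with the lowest Aldh1a3 of its group, had the lowest adipocyte sum. It also had the lowest fibroblast, macrophage, endothelial and proliferation sums of that group and the highest cardiomyocyte and mural sums. The highest Aldh1a3 of the group was that of cell sheet 2, and the highest adipocyte sum that of cell sheet 6. Wt1 had r = 0.56 with the 5 endothelial markers, whose border zone sums were 912.8, 1052 and 1251 CPM in cell sheet hearts, 720.0, 903.4 and 968.0 CPM in MI and 490.9, 1080 and 1114 CPM in sham. For the remaining lists r ran from -0.48 (Wt1) to 0.37 (Aldh1a2) with activated fibroblast markers, from -0.33 (Aldh1a3) to 0.38 (Tcf21) with mural markers, from -0.38 (Aldh1a1) to 0.48 (Aldh1a3) with proliferation markers, from -0.09 (Aldh1a2) to 0.35 (Wt1) with erythroid markers, from -0.46 (Wt1) to -0.06 (Aldh1a3) with skeletal muscle markers and from -0.28 (Tbx18) to 0.21 (Aldh1a1) with lung epithelium markers. The part of these cell types in the member differences was not tested.

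Reads of near relatives could in principle be counted with a member. Aldh1a7 had 0 to 3 counts in any library, Upk3bl1 0 to 18 and Mslnl 3 to 117. In the RefSeq annotation of GRCr8, the spans of Upk3b and Krt19 each overlap 1 uncharacterized gene (LOC120095913 and LOC102554449), and with the strand setting of the counts not given in the sources used here, reads from overlapping genes cannot be told apart; no gene overlaps the other 8 members.

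Beyond the members, 20 other epicardial and mesothelial genes were listed, of which 18 could be tested between untreated MI and sham in the infarct zone. 9 of these were higher and 5 lower, with a median log2 difference of 0.69, beside 22.7% of all genes higher and 27.2% lower; the share that was lower is near the background. The keratins Krt8 and Krt18 were higher there by 2.36 and 3.27, and Krt7 by 1.96, in contrast to Krt19. Bnc2, a zinc finger factor of mesenchymal cells, was higher by 2.24, Upk1b, a uroplakin, by 1.99, and Itga8, the integrin alpha-8 chain, by 3.58. The GATA factors Gata4, Gata5 and Gata6, which epicardium shares with cardiomyocytes, were lower (-0.57, -1.73 and -0.51), and so was Scx, the tendon and epicardial factor scleraxis (-1.07). The same list had 3 higher and 3 lower of 19 in the border zone, no more than the 18.4% and 23.2% of all genes. Its count in the septum was 6 higher and 4 lower of 17, beside 11.7% and 14.2%. Between cell sheet and untreated MI, 0 of 19 were called in either infarct or border pieces, where 0% and 18% of all genes were. Among the 17 tested in the septum, 3 were higher (Gata4, Gata5 and Gata6, by 0.43 to 0.95) and 2 lower (Krt18 at -2.98 and Sema3d at -0.55), beside 10.3% of all genes higher and 6.79% lower.

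**Figure D5:**
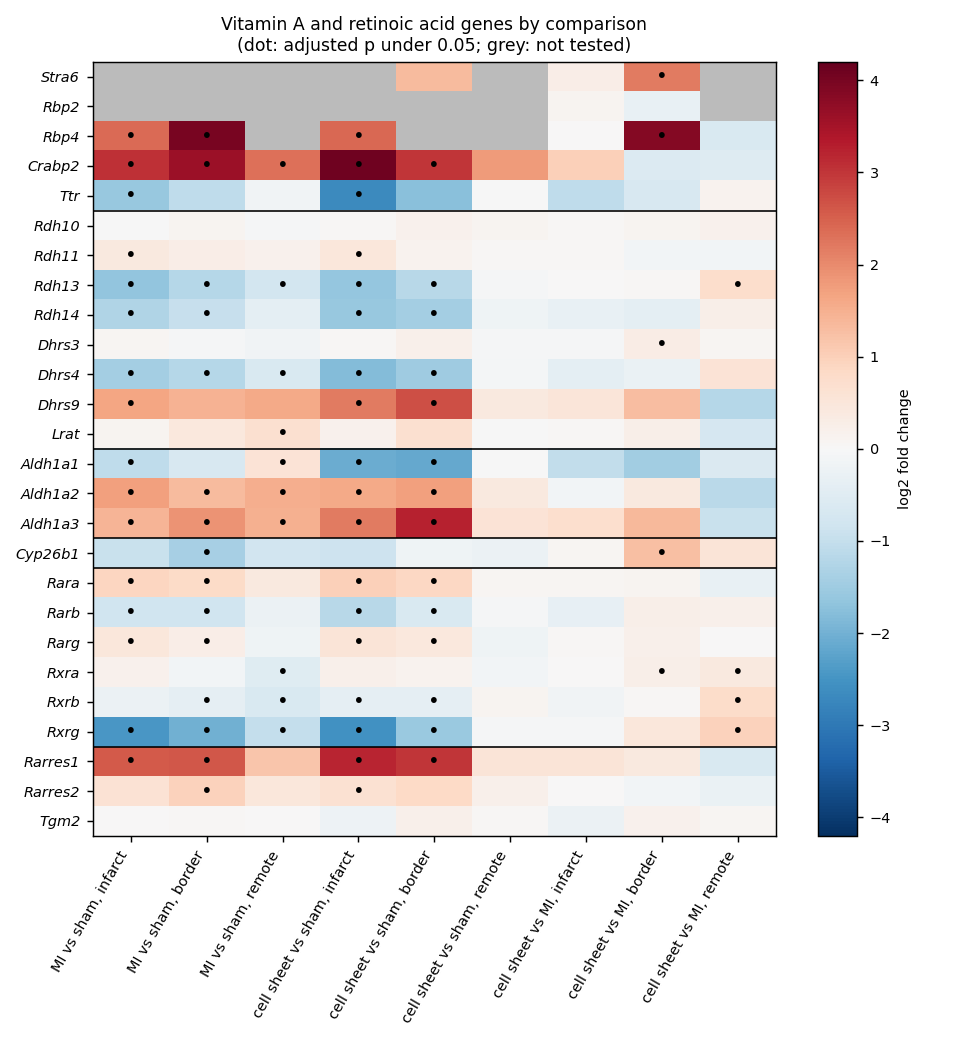
Log2 fold change of 26 genes of vitamin A handling and retinoic acid signalling (rows, grouped from uptake and binding to response) in the 9 comparisons of treatments within a zone (columns); dots mark an edgeR adjusted p under 0.05 and grey cells were not tested. In untreated MI against sham in the infarct zone Crabp2 reaches 3.05 and Rxrg -2.46.

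Of the genes around the retinaldehyde step, some uptake and binding proteins were higher in the MI infarct zone than in sham: Crabp2, which carries retinoic acid to its nuclear receptors, by 3.05 ± 0.48 and Rbp4, the serum retinol carrier that liver and fat secrete, by 2.37 ± 0.61 (edgeR adjusted p = 0.000634 and 0.00793). Ttr, the partner of Rbp4 in plasma, was lower (-1.58 ± 0.53, edgeR adjusted p = 0.0258). Crabp2 was also higher in the MI border and remote zones (3.60 and 2.30). In cell sheet against untreated MI in the border zone, Rbp4 was higher (3.86 ± 1.03, edgeR adjusted p = 0.0224). So was Stra6, the membrane receptor for Rbp4 (2.18 ± 0.56, edgeR adjusted p = 0.0184). Against sham in that zone Stra6 did not pass (1.34 ± 0.85, edgeR adjusted p = 0.215), and Rbp4 had no test. In the summed infarct and border counts against MI, Rbp4 passed and Stra6 did not (edgeR adjusted p = 0.0299 and 0.0677). The adipocyte markers stood at a median of 232.1 CPM in the cell sheet border zone, and their part was not tested.

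Of the 10 retinol dehydrogenases, reductases and storage enzymes, 8 were tested in the MI infarct zone. Rdh13, Rdh14 and Dhrs4 were lower (-1.64, -1.26 and -1.41) and Dhrs9 and Rdh11 higher (1.66 and 0.40), while Rdh10, the main retinol dehydrogenase of the embryo, was at -0.0008 ± 0.14. These 3 lower and 2 higher of 8 are near the shares over all genes there, 27.2% and 22.7%. Lrat, which stores retinol as esters, was higher in the MI remote zone (0.68). Cyp26b1, which degrades retinoic acid and was the 1 of 3 such enzymes expressed enough to test in the comparisons of treatments within a zone, was lower in the MI border zone (-1.41) and higher in cell sheet than in MI border zones (1.25).

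All 6 retinoid receptor genes were tested. In the MI infarct zone Rara and Rarg were higher (0.92 ± 0.14 and 0.47 ± 0.08) and Rarb and Rxrg lower (-0.83 ± 0.23 and -2.46 ± 0.62). These calls stand beside 22.7% of all genes higher and 27.2% lower there. In the MI remote zone Rxra, Rxrb and Rxrg were lower (-0.52, -0.65 and -1.02), and in cell sheet against MI remote zones the same 3 were higher (0.41, 0.76 and 0.97); both comparisons share the MI libraries. Over all genes 14.2% were lower in the former and 10.3% higher in the latter. Of 9 genes known to respond to retinoic acid, 2 were higher (Crabp2 and Rarres1) and 1 lower (Rarb) among the 7 tested in the MI infarct zone, and Dhrs3, a feedback reductase, and Tgm2, a transglutaminase, were at 0.08 and 0.00; the 2 and 1 of 7 are near or below the 22.7% and 27.2% of all genes. In cell sheet against MI in the border zone 3 of 8 were higher, Stra6, Cyp26b1 and Dhrs3 (0.30), beside 8.47% of all genes, while Crabp2, Rarb and Rarres1 were not called (-0.59, 0.25 and 0.42).

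The balance of higher and lower calls depended on the scaling. With library size in place of TMM factors, the median log2 difference of all genes moved by 0.13 to 0.27 in the comparisons with sham in which members were called, and by 0.11 to 0.21 in the infarct zone of MI hearts and both zones of cell sheet hearts against the septum. The share of calls that were higher went from 45.5% to 67.1% in MI against sham in the infarct zone, from 44.2% to 64.1% in the border zone and from 45.1% to 68.6% in the remote zone. In cell sheet against sham it went from 49.5% to 66.3% and from 46.8% to 71.2% in the infarct and border zones, and in cell sheet against MI from 47.2% to 57.3% in the border zone and from 60.2% to 48.5% in the remote zone. In the zone contrasts it went from 50.3% to 63.2% in MI and from 50.1% to 64.5% and 51.8% to 68.4% in cell sheet hearts. No member called with TMM factors changed direction, but in MI against sham in the infarct zone Krt19 and Aldh1a1 were no longer called and Wt1, Tcf21 and Upk3b were (8 members higher, 0 lower).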

How the data were processed

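The labels of 54 libraries gave treatment, zone and animal number, which form 9 groups of 6. The authors aligned the reads with STAR to mRatBN7.2 and deposited a table of whole-number counts per gene for each library, without normalization; which program counted, and with what strand setting, is not given in the sources used here. The submitters' processing notes name DESeq2. The 5 summary lines of each table, 17.0% to 42.8% of its total, were left out. No pair of libraries of a group was alike within sampling noise (chi-square per degree of freedom at least 7.97).

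Counts were tested with edgeR 4.0.16 in R 4.3.3 (quasi-likelihood F test, TMM factors, filterByExpr defaults, Benjamini-Hochberg over all genes in a fit, threshold 0.05), with the libraries of the groups compared. All 10 genes passed the filter in each of the 21 comparisons. The animal was a block in contrasts of zones and in interactions. SE is the log2 difference divided by the root of F. Levels are CPM computed from the deposited counts with TMM factors over all libraries, and log2 CPM for correlations has a prior count of 2. Alternatives were DESeq2 1.42.0, library size alone, no filter, at least 10 counts in every library, the replicate block or its absence, a single fit of all libraries, and leaving out each animal. The test was tested on simulated data first.

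The 10 genes, the further gene lists and the marker lists were chosen with earlier results of these data known. The text names every member, the 3 genes most like each, and genes of the fixed lists; 1 listed gene was left out of the text and plots and is not reported here. The cell type lists were cardiomyocyte, fibroblast, activated fibroblast, endothelial, mural, macrophage, adipocyte, lung epithelium, skeletal muscle, erythroid and proliferation.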

Additional observations from a re-analysis of the deposited data

Results flagged for a closer look

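The difference between the infarct and remote zones in the effect of MI on Aldh1a1 was itself past the threshold, at -1.88 on the log2 scale (edgeR adjusted p = 0.00245).

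By Dixon's criterion, chance alone flags about 1 in 20 independent sets of normally distributed values. The members are correlated within libraries and CPM was not log-transformed here, so the sets below cannot be weighed against that share. In 13 of the 90 sets of 6 animals (10 genes in 9 groups) 1 animal stood apart from the rest by this criterion on CPM. MI 1 in the border zone did so for 4 genes, being high in each: Wt1 (68.7 CPM against 27.4 to 39.7 CPM in the others), Upk3b (36.4 against 5.36 to 15.4 CPM), Lrrn4 (77.9 against 6.67 to 30.8 CPM) and Aldh1a3 (51.5 against 17.1 to 27.9 CPM). In the infarct zone MI 1 was also high for Aldh1a1 (127 against 22.7 to 60.1 CPM). Cell sheet 1 was high in the infarct zone for Wt1 (86.8 against 21.7 to 44.1 CPM) and Upk3b (51.1 against 1.47 to 15.2 CPM), and in the remote zone for Tbx18 (37.2 against 10.9 to 19.9 CPM) and Tcf21 (35.9 against 20.1 to 25.3 CPM). Cell sheet 4 was high in the remote zone for Wt1 (54.4 against 24.8 to 33.9 CPM) and Upk3b (18.5 against 0.35 to 6.70 CPM). MI 6 was low in the remote zone for Aldh1a1 (69.9 against 112 to 131 CPM), and sham 5 was high in the remote zone for Aldh1a3 (9.76 against 5.06 to 6.81 CPM).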

How the results depend on the processing

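Of 210 values (10 genes in 21 comparisons), 46 were called; 30 of these were called under every alternative run, and none of the 46 changed sign. Of the 112 called under no setting, 49 changed sign under some alternative. Of 102 counts of called genes under alternatives other than leaving out an animal, 80 were within 1.5 times the reported count; the cause of the other 22 was not tested. With DESeq2 the counts were 2 in cell sheet against MI in the border and in the remote zone, 4 in their summed infarct and border counts, 8 in cell sheet against sham in the border zone, 2 in border against remote zone of MI, 1 in each of the cell sheet interactions of border or infarct with remote zone, and 2 in the MI interaction of border with remote zone. With all 54 libraries in a single fit they were 4 and 3 in MI against sham in the infarct and remote zones, and 3 and 8 in the border zone for cell sheet against MI and against sham. With library size alone they were 1 in cell sheet against MI in the remote zone and 5 in infarct against remote zone of MI. With at least 10 counts in every library 1 was called in cell sheet against MI in the remote zone. Without the filter 8 and 7 were called in infarct and border against remote zone of sham. The counts in this section show how the calls depend on the processing and are not weighed against the share of all genes called. Where a setting other than leaving out 1 animal moved the number of all genes called by more than 1.5 times, that number is given below.

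The animal numbers of different treatments did not pair the samples: same-numbered animals correlated between -0.628 and 0.511. With a replicate block on them, 5 members were called in MI against sham in the border zone, beside 4193 of 15641 genes. Under the same block 8 were called in the remote zone and 2 in the summed counts, the latter beside 477 of 17985 genes. Msln in cell sheet against sham in the infarct zone was then at an edgeR adjusted p of 0.0541. Zones of 1 animal were paired by the labels, with correlations of 0.203 to 0.909 in sham. With the remote zone, MI infarct and border pieces correlated at -0.215 to 0.362 and -0.194 to 0.337. Those of cell sheet hearts correlated at -0.179 to 0.413 and -0.188 to 0.544. In MI and cell sheet hearts the pairing therefore rests on the labels. With no replicate block, 0 were called in border against remote zone of sham and 1 in infarct against remote zone of MI.

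Leaving out 1 animal at a time gave 5 to 7, 3 to 4 and 4 to 6 called members in MI against sham (infarct, border, remote), 0 to 0, 0 to 4 and 0 to 4 in cell sheet against MI, 0 to 3 in their summed counts, 5 to 5, 5 to 8 and 0 to 0 in cell sheet against sham, 2 to 6 and 2 to 5 in infarct and border against remote zone of sham, 1 to 4 and 0 to 0 of MI, and 5 to 7 and 3 to 9 of cell sheet hearts; in the interactions it gave 0 to 1 for cell sheet against MI in infarct and remote zone, 0 to 2 for MI against sham in border and remote zone, and 1 to 1 in infarct and remote zone. Leaving out sham 5 and cell sheet 1 together, chosen after seeing the data, gave 5, 6 and 0 in cell sheet against sham.

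Numbers of all genes called moved by more than 1.5 times in several settings. The replicate block gave 4193 in place of 6517 in MI against sham (border), 1214 in place of 2922 and 2 in place of 2623 in cell sheet against MI (border, remote), 477 in place of 2179 in the summed counts (1378 without the filter), and 0 in place of 1 in cell sheet against sham (remote), where DESeq2 gave 180, the single fit 183 and leaving out both animals 128. In cell sheet against MI in the infarct zone DESeq2 gave 59 and the single fit 6 in place of 0. With no replicate block there were 1081 and 307 genes in place of 4878 and 3880 in the sham zone contrasts, and 3409 (DESeq2 4370) in place of 0 in border against remote zone of MI. In the interactions of cell sheet against MI DESeq2 gave 353, 1081 and 1662 and no replicate block 80 and 6 (the first 2) in place of 0; in those of MI against sham DESeq2 gave 1420 in place of 0 (border) and no replicate block 1431 in place of 4748 (infarct). The offset alternatives for single levels were not run, since every member was tested in each comparison. Depth limits Krt19 most, with 2 counts in its poorest library.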
